A study of Homo sapiens with 14 samples.

Results

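A549 cells given palbociclib and indisulam together were compared with untreated A549 cells across all genes. The comparison rests on 4 of the 14 libraries of the series, the 2 titled A549 P+I and the 2 titled A549 UT. A549 is an established line from a human lung adenocarcinoma that lacks the p16 inhibitor of the cell cycle. The combination was 2 μM palbociclib with 0.5 μM indisulam for 10 days. Libraries of palbociclib alone and of indisulam alone, 2 of each at the same doses and for the same 10 days, served to set the combination beside each drug. The untreated cells received neither drug, and the labels give no time of collection for them, so that days in culture and drug cannot be told apart. The tests pooled the spread over all 10 A549 libraries, which include 2 given 0.5 μM PF-06873600, a drug not compared here, for 7 days. The series text calls the replicates technical duplicates, so that the p-values measure the spread between these libraries only. The study asked whether indisulam deepens the arrest that palbociclib starts and turns it into senescence, and the comparison here gives the RNA levels of the cells.

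Palbociclib blocks CDK4 and CDK6, the kinases that phosphorylate RB and so free E2F factors to switch on genes of S phase. Indisulam is a molecular glue that brings the splicing factor RBM39 to DCAF15, a substrate receptor of a ubiquitin ligase, and RBM39 is then degraded. When RB family proteins stay active, the DREAM complex holds down genes of S phase through E2F sites and genes of mitosis through a short element called the CHR, often near a CCAAT box. The p53 factor adds to arrest by raising CDKN1A, whose product p21 blocks cyclin-CDK complexes. Arrested cells often secrete proteases, chemokines and matrix proteins, and interferon-stimulated genes are a further group that can be raised in such cells.

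Promoter stretches of genes from the lists for mitosis, DNA replication and interferon response are shown here because the same lists carried many of the changes below. They are the 100 bases upstream of the first start listed for each gene by RefSeq on GRCh38.p14. Each is read 5′ to 3′ on the strand of the gene. They were chosen after the values had been seen, in order of fold change, and genes without a match to the motif were passed over. Each stretch shown therefore holds a match by choice. For 4 genes of mitosis, the capitals mark the CHR letters TTTGAA or TTTAAA. KIF20A lay at chr5:138179012-138179111 on the plus strand, CENPA at chr2:26785956-26786055 on the plus strand, HMMR at chr5:163460532-163460631 on the plus strand and MKI67 at chr10:128126424-128126523 on the minus strand.
KIF20A: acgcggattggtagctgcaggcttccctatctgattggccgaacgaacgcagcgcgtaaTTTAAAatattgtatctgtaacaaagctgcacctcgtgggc
CENPA: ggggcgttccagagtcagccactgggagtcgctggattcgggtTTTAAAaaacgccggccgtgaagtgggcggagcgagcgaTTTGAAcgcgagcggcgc
HMMR: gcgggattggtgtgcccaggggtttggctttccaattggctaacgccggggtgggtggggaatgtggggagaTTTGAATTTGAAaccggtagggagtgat
MKI67: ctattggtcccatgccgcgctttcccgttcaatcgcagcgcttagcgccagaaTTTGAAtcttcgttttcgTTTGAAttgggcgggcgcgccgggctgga
For GINS2 at chr16:85688955-85689054 on the minus strand and CDT1 at chr16:88803689-88803788 on the plus strand, both needed to load or start replication forks, the capitals mark an E2F match, TTTCCCGC read on the opposite strand.
GINS2: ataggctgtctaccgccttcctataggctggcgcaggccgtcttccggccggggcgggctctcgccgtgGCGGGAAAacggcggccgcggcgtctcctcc
CDT1: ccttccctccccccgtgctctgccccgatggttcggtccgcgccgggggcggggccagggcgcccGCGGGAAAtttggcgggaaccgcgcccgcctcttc
For IFI27 at chr14:94110636-94110735 on the plus strand, IFI6 at chr1:27672193-27672292 on the minus strand and DDX60L at chr4:168480493-168480592 on the minus strand, the capitals mark GAAANNGAA, a part of the interferon-stimulated response element.
IFI27: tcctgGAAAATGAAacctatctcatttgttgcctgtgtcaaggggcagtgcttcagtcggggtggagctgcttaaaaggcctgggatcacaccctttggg
IFI6: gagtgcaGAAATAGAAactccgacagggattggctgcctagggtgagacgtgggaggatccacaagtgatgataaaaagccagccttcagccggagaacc
DDX60L: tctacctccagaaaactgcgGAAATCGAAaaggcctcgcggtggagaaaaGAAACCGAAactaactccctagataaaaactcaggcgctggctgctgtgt
Over all 27305 promoters of the RefSeq table, searched on both strands in the same 100 bases, the CHR letters occurred in 8.33%, CCAAT in 18.7%, the E2F letters (TTTCCCGC, TTTGGCGC, TTTCGCGC or TTTGCCGC) in 1.16% and GAAANNGAA in 2.72%. Of the 44 mitosis genes with a promoter in the table, 22 held the CHR letters and 27 held CCAAT. The E2F letters were in 10 of 37 promoters of the DNA replication list, and GAAANNGAA was in 17 of 38 promoters of the interferon list. These are matches of letters and no record of binding. In 250 bases the CHR letters occurred in 31 of the 44 mitosis promoters and in 22.1% of all promoters.

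The deposited values are counts of reads per gene, given here as CPM, the counts per 1000000 reads on genes in that library. The 4 libraries held between 14103047 and 15537212 reads on genes, at which 3 counts, the floor used for each library, equal 0.193 to 0.213 CPM. Over the A549 libraries the biological coefficient of variation was 0.0555, and log2 CPM of the 2 replicates of a group correlated at 0.991 (Pearson, across genes) for untreated and at 0.994 for the combination. Squared differences between the counts of the 2 untreated libraries were 10.5 times the sampling variance (chi-square per degree of freedom). For the combination libraries they were 2.35 times that variance, so that untreated replicates stood further apart. Reads of mitochondrial genes made up 5.22% and 4.17% of the untreated libraries and 4.49% and 5.26% of the combination libraries. The epithelial markers summed to 6492 and 5573 CPM untreated and to 13816 and 13239 CPM with the combination. Of the alveolar type 2 markers, SFTPB was at 0 in the 4 libraries, and SFTPC did not pass 0.322 CPM nor NKX2-1 0.451 CPM. Of the 4 alveolar type 2 markers tested, NAPSA (0.884 and 0.533 CPM untreated, 3.69 and 3.22 CPM with the combination) and LAMP3 (0.34 and 0.133 CPM, 0.993 and 1.29 CPM) were higher and ABCA3 (115 and 98.6 CPM, 88.3 and 83.4 CPM) was lower, and the list summed to 116 and 99.7 CPM untreated and to 94.2 and 89.8 CPM with the combination. Of leukocyte markers, CD3E was at 0 and PTPRC did not pass 0.142 CPM. The leukocyte list summed to 7.48 and 6.8 CPM untreated and to 11.3 and 10.6 CPM with the combination, and 2 of its 3 members tested were higher. CD14 stood at 5.03 and 4.07 CPM untreated and at 6.88 and 6.63 CPM with the combination, LYZ at 2.38 and 2.4 CPM and then 3.47 and 2.96 CPM, and CD68 at 0.068 and 0.2 CPM and then 0.78 and 0.901 CPM.

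The combination changed most of the genes tested, and the large changes were mainly gains. By edgeR's quasi-likelihood test at an adjusted p under 0.05, 35.1% of the 15780 genes tested were higher than in untreated cells and 30% were lower. This balance turned with scaling by trimmed means (TMM), which gave 4908 genes higher and 5397 lower, and with a mean of at least 50 counts, which gave 4091 higher and 4135 lower. A change of at least 2-fold as well was seen for 2624 genes that rose (16.6%) and 1420 that fell (9%), and 60.7% of the called genes changed by less than 2-fold. At 16-fold or more, 405 genes rose and 29 fell. Single drugs gave fewer 2-fold calls against the same untreated libraries, with 237 genes higher and 138 lower for palbociclib and 1523 higher and 497 lower for indisulam. The median log2 fold change over all genes tested was 0.05, and TMM scaling moved it by -0.08. Counts of list members over untreated, given below, are to be read beside the 35.1% higher and 30% lower of all genes.

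**Figure D1:**
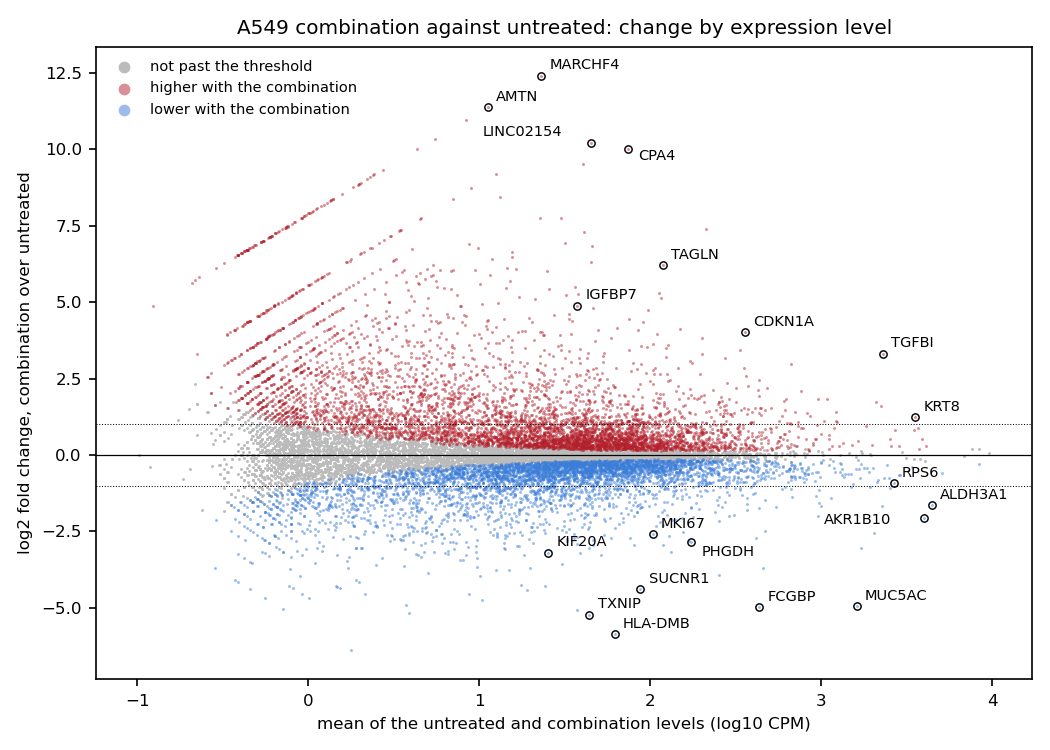
Each point is 1 of the 15780 genes tested, with its mean level over the untreated and combination groups (log10 CPM) on the x axis and its log2 fold change on the y axis. Red points were higher and blue points lower at an adjusted p under 0.05, grey points were not called, dotted lines mark 2-fold, and gains reach further from 0 than losses, while the fitted change of genes at 0 in untreated cells depends on the prior count.

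Genes of mitosis fell as a whole list. All 53 members of the mitosis list were lower than in untreated cells, 48 of them by at least 2-fold, with a median log2 fold change of -2.24 beside 0.05 for all genes. KIF20A, a kinesin of cytokinesis, stood at 42.0 and 49.3 CPM in the untreated libraries and at 4.54 and 5.41 CPM with the combination, and fell by 3.19 on the log2 scale (SE 0.12, edgeR adjusted p = 1.9e-11). CDK1, the kinase that starts mitosis, went from 53.2 and 60.9 CPM to 10.4 and 6.82 CPM (log2 fold change -2.74, SE 0.13, edgeR adjusted p = 1.77e-10). MKI67, the source of the Ki67 antigen, went from 172 and 182 CPM to 30 and 29.3 CPM (-2.58, SE 0.09, edgeR adjusted p = 3.88e-12). For none of these genes did the groups overlap, but with 2 libraries against 2 this held for 12680 of all 15780 genes tested. CENPA, the histone variant of centromeres, and HMMR, a spindle protein, had log2 fold changes of -2.83 and -2.76. The smallest falls were those of BUB3 (-0.61), a checkpoint protein, and SMC2 (-0.25, edgeR adjusted p = 0.0449), a condensin subunit. The call of SMC2 was lost in 6 alternatives, which left 52 of the 53 called: DESeq2 (adjusted p = 0.0642), no filter on low counts (edgeR adjusted p = 0.0547), only the compared libraries in the model (0.101), totals without mitochondrial genes (0.0504), and leaving out combination replicate 1 or untreated replicate 2 (log2 fold changes -0.12 and -0.21). Fewer dividing cells and less RNA of these genes per cell cannot be told apart in bulk libraries.

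With palbociclib alone 19 of the 53 mitosis genes were lower than untreated and 6 higher, where 7.4% of all genes were lower and 8.3% higher. With indisulam alone 13 were lower and 9 higher, where 17.5% of all genes were lower and 28% higher. MKI67 stood at 123 and 107 CPM with palbociclib and at 138 and 147 CPM with indisulam. The list's median log2 fold change over the same untreated libraries was -0.17 with palbociclib and 0.00 with indisulam, beside -0.01 and 0.08 for all genes. KIF20A stood at 32.9 and 29.5 CPM with palbociclib and at 35.7 and 34.0 CPM with indisulam. Set directly against palbociclib, the combination was lower for all 53 members, where 26.9% of all genes were lower and 33.5% higher. Set against indisulam it was again lower for all 53, where 23.9% of all genes were lower and 22% higher.

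Genes of DNA replication and repair fell too. Of 44 replication genes, 39 were lower and none higher (median -1.07). CDC45, a part of the replicative helicase, went from 10.8 and 12.9 CPM to 1.21 and 1.29 CPM (log2 fold change -3.24, SE 0.20, edgeR adjusted p = 2.28e-09). TK1, the thymidine kinase of S phase, went from 87.8 and 75.5 CPM to 11.8 and 9.4 CPM (-2.95, SE 0.11, edgeR adjusted p = 1.43e-11). Both genes had groups that did not overlap, as did GINS2 (-3.02) and CDT1 (-2.18). Of 25 genes of homologous recombination and the Fanconi pathway, 22 were lower and none higher (median -1.56). FANCD2, monoubiquitinated at stalled forks, went from 25.4 and 22.0 CPM to 5.89 and 6.5 CPM (-1.93, SE 0.16, edgeR adjusted p = 6.48e-08), while palbociclib alone gave 29.2 and 39.1 CPM. RAD51AP1, a factor of strand exchange, fell by 2.43 and EXO1, a resection nuclease, fell by 1.76 on the log2 scale. With palbociclib alone the medians of these lists were 0.21 and 0.16, and with indisulam alone 0.04 and -0.03. Against palbociclib 43 of the 44 replication genes and 22 of the 25 repair genes were lower, and against indisulam 41 and 21. Of all genes, 26.9% were lower against palbociclib and 23.9% against indisulam.

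Histone genes of the replication-dependent kind did not follow the replication list. Their transcripts mostly lack a poly(A) tail, and only 18 of 55 listed genes had enough reads in these poly(A) libraries to be tested. Of these 18, 6 were higher, at 33.3% near the 35.1% of all genes, and 11 were not called. Only 1, H2AC11, was lower (5.56%, beside 30% of all genes), and the median was 0.55. H2AC11 changed by -1.37, and by -0.81 with no call without combination replicate 1. H1-2, a linker histone, went from 9.86 and 11.7 CPM to 24.5 and 24.3 CPM (log2 fold change 1.17, SE 0.12, edgeR adjusted p = 5.91e-07). Against palbociclib 14 of the 18 were higher, where 33.5% of all genes were, and against indisulam 9, where 22% of all genes were. H2BC5 and H2BC12 had log2 fold changes over untreated of 1.13 and 1.10.

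**Figure D2:**
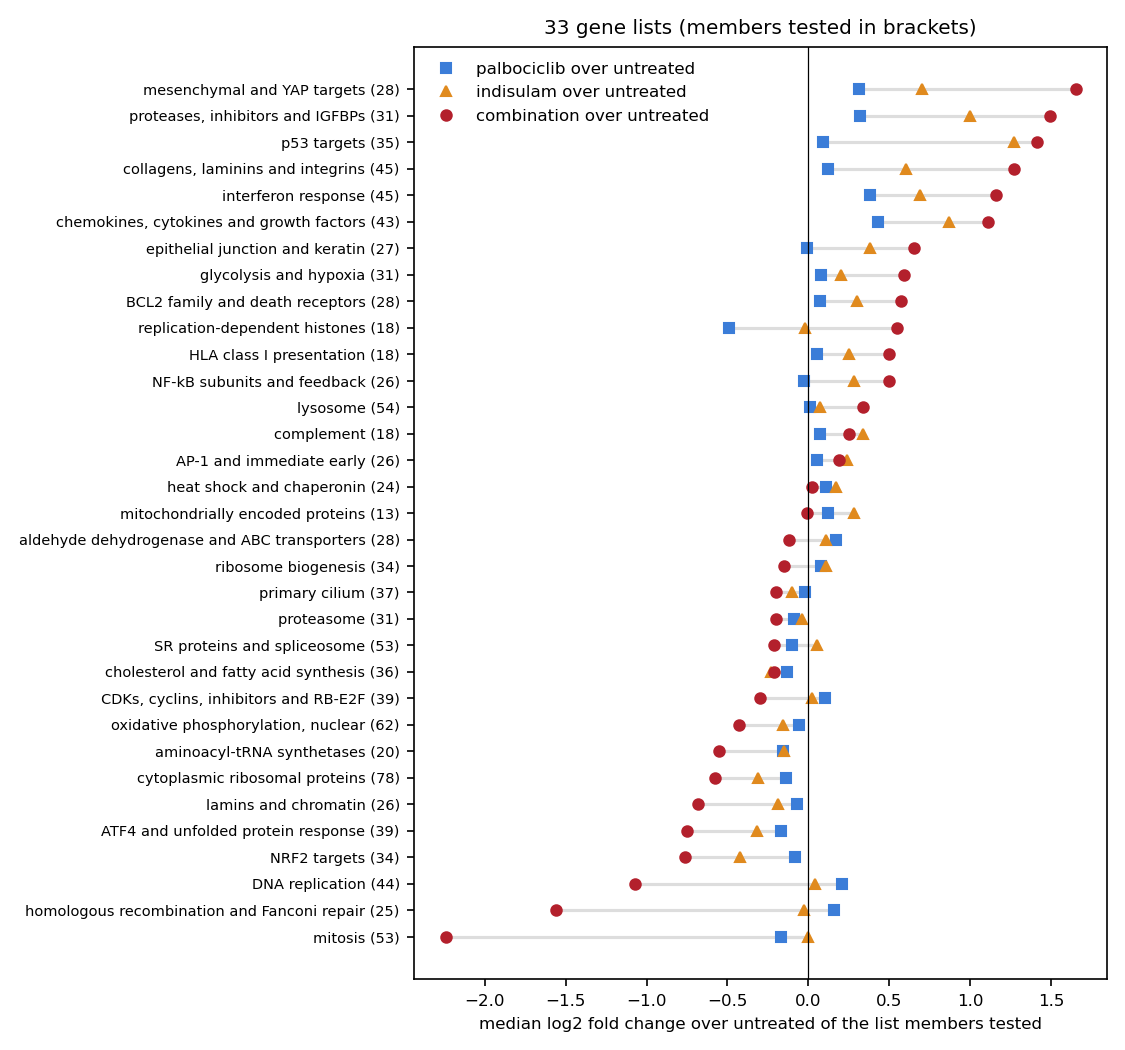
Median log2 fold change over untreated (x axis) of the tested members of each of 33 gene lists (y axis), for palbociclib, indisulam and their combination, which share the untreated libraries. The mitosis list sits at -2.24 for the combination but at -0.17 and 0.00 for the single drugs, and the mesenchymal list reaches 1.65.

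Among lamins and chromatin proteins, 20 of 26 members were lower and 5 higher (median -0.68). HMGB2, a DNA-bending protein lost in arrested cells, went from 66.7 and 74.3 CPM to 7.66 and 7.79 CPM (log2 fold change -3.19, SE 0.11, edgeR adjusted p = 5.35e-12). LMNB1, the B-type lamin of the nuclear envelope, went from 48.3 and 47.7 CPM to 9.64 and 8.56 CPM (-2.40, SE 0.10, edgeR adjusted p = 3.98e-11). LBR, the lamin B receptor, fell by 2.01 on the log2 scale. The 5 that rose were LMNA (0.78), HMGA2 (1.32), DNMT3B, H2AJ and ATRX. The call of H2AJ was lost with TMM scaling (0.18), with DESeq2 (0.23) and with only the compared libraries in the model (0.26). It was also lost without untreated replicate 2 (0.12) or either combination replicate (0.27 and 0.25). HMGA2, an architectural protein of chromatin, was at 66.8 and 69.3 CPM with the combination and at 26.4 and 28.2 CPM untreated.

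The cell cycle regulators moved in both directions (median -0.30). Of 39, 10 were higher (25.6%, beside 35.1% of all genes) and 21 lower (53.8%, beside 30%). CDKN1A, which encodes p21, rose from 39.2 and 43.7 CPM to 683 and 666 CPM (log2 fold change 4.03, SE 0.07, edgeR adjusted p = 6.26e-15). Indisulam alone gave 377 and 383 CPM of CDKN1A and palbociclib alone 56.0 and 54.3 CPM, so that the order of the groups was combination, indisulam, palbociclib and untreated with no overlap. CDKN2A and CDKN2B, which encode p16 and p15, had no read in any of these libraries. CDKN2C, the gene of p18, fell from 61.5 and 70.3 CPM to 9.5 and 8.24 CPM (-2.90, SE 0.12, edgeR adjusted p = 2.47e-11).

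Single cyclin genes moved in both directions. CCND1, a partner of CDK4 and CDK6, rose from 429 and 406 CPM to 1474 and 1522 CPM (log2 fold change 1.84, SE 0.05, edgeR adjusted p = 1.01e-12), above the 638 to 646 CPM with palbociclib and the 675 to 693 CPM with indisulam. CCND2 had no read in the untreated libraries and 2.06 and 2.19 CPM with the combination, at least 10.4-fold higher. CCNE1, a partner of CDK2, rose from 10.3 and 11.3 CPM to 26.9 and 25.5 CPM (1.28), while CCNE2 fell from 2.38 and 2.67 CPM to 0.922 and 0.451 CPM (-1.89, edgeR adjusted p = 0.000281). CCNA2, the cyclin A of S phase and G2, fell by 1.39 on the log2 scale. The kinases changed less, with log2 fold changes of -0.33 for CDK2, -0.30 for CDK4 and 0.51 for CDK6, each past the threshold. RB1 was at 38.0 and 47.1 CPM untreated and at 41.5 and 43.7 CPM with the combination, which lay between them (edgeR adjusted p = 0.995). RBL1, the RB relative p107, fell by 1.96.

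**Figure D3:**
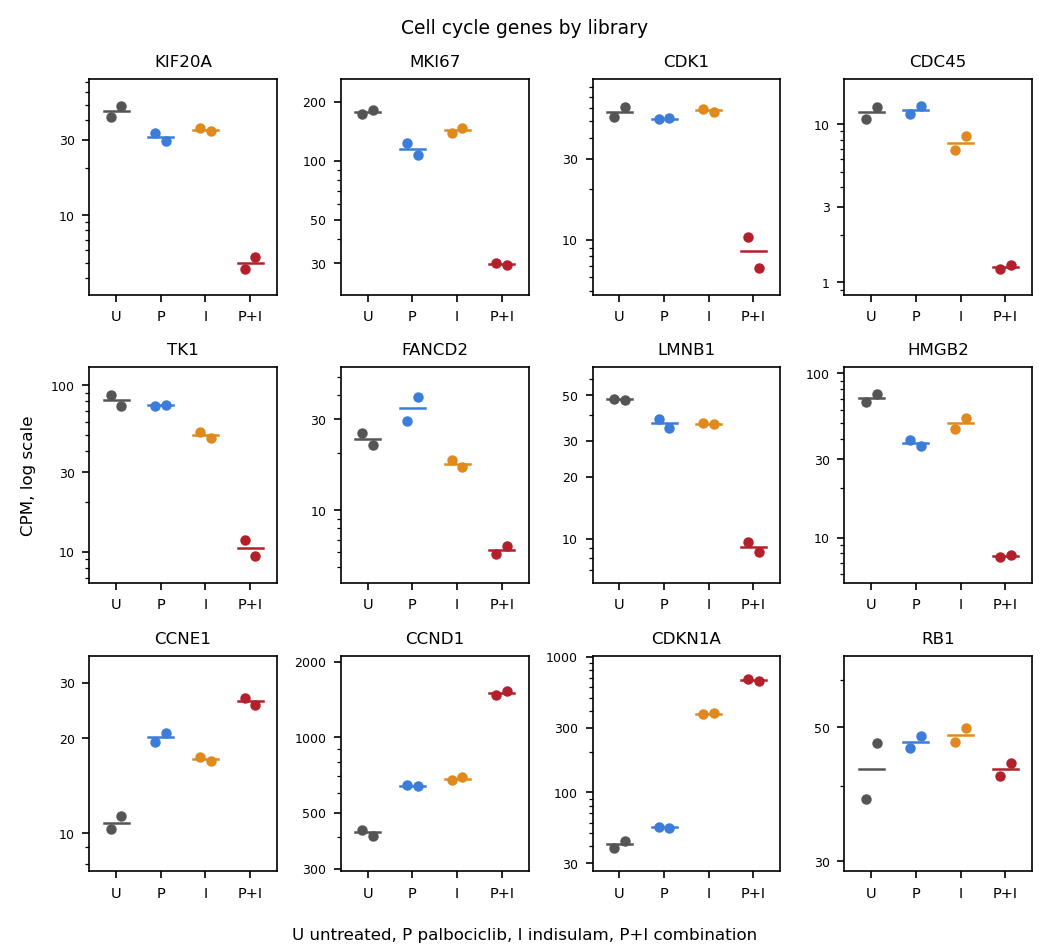
Levels (CPM, log scale) of 12 cell cycle genes in each library, with U for untreated, P for palbociclib, I for indisulam and P+I for the combination, and a bar at the mean of each pair. The combination libraries are the lowest for KIF20A, MKI67, CDK1, CDC45, TK1, FANCD2, LMNB1 and HMGB2 and the highest for CCNE1, CCND1 and CDKN1A, and for RB1 they lie within the untreated range.

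Transcripts of RBM39, the protein that indisulam degrades, rose. RBM39 stood at 150 and 135 CPM untreated and at 229 and 227 CPM with the combination (log2 fold change 0.68, SE 0.08, edgeR adjusted p = 2.13e-06). Indisulam alone gave 244 and 263 CPM, and the difference of the combination from it was -0.15 (edgeR adjusted p = 0.109). DCAF15 was at 10.4 and 9.4 CPM untreated and at 13.5 and 12 CPM with the combination (0.36, edgeR adjusted p = 0.0296). This call was lost with TMM scaling (0.28, edgeR adjusted p = 0.0852), with DESeq2 (0.32), without untreated replicate 2 (0.29) and without combination replicate 1 (0.27). Protein levels are not measured by these libraries. Other splicing factors fell more often than they rose, since of 53 SR proteins and spliceosome parts 28 were lower and 10 higher (median -0.21). HNRNPA1, a repressor of exon inclusion that has many pseudogenes, went from 881 and 937 CPM to 415 and 424 CPM, and TRA2B, an activator of exons, from 144 and 143 CPM to 78.4 and 77.4 CPM. SNRNP70, a part of the U1 particle, rose from 218 and 138 CPM to 350 and 377 CPM. Against indisulam alone 35 of the 53 were lower and 1 was higher, where 23.9% of all genes were lower and 22% higher.

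Targets of p53 rose almost as a whole list, with 33 of 35 higher and 1 lower (median 1.41). FAS, a death receptor, rose from 6.93 and 8.4 CPM to 67.9 and 70.2 CPM (log2 fold change 3.17, SE 0.11, edgeR adjusted p = 4.23e-12). BAX, a protein that opens the outer mitochondrial membrane, rose from 84.8 and 71.0 CPM to 241 and 240 CPM (1.63, SE 0.07, edgeR adjusted p = 8.97e-11). ACER2, an alkaline ceramidase, and TNFRSF10C, a decoy receptor, rose by 2.92 and 2.41. The member that fell was PMAIP1, the gene of the death protein NOXA, at 49.3 and 57.7 CPM untreated and 32.4 and 33.9 CPM with the combination. With indisulam alone the median of the list was 1.27 and with palbociclib alone 0.09. The combination was higher than indisulam for 19 of the 35 and lower for 3, where 22% of all genes were higher and 23.9% lower.

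Genes of the BCL2 family and death receptors, some of which are p53 targets too, rose in 20 of 28 cases and fell in 3, namely PMAIP1, TNFRSF1A and XIAP (median 0.57). BCL2L1, which encodes the survival protein BCL-XL, went from 254 and 251 CPM to 378 and 367 CPM (log2 fold change 0.56, SE 0.05, edgeR adjusted p = 2.35e-07). XIAP, an inhibitor of caspases, had a log2 fold change of -0.21. Its call was lost with only the compared libraries in the model and without untreated replicate 2 (-0.14) or combination replicate 2 (-0.17).

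Of 45 collagens, laminins and integrins, 34 were higher and 2, LAMB1 and ITGA10, were lower (median 1.27). COL5A1, a fibrillar collagen, rose from 0.68 and 0.333 CPM to 79.0 and 83.3 CPM (log2 fold change 7.31, SE 0.16, edgeR adjusted p = 5.44e-14). COL1A1, a chain of type I collagen, rose from 1.9 and 1.93 CPM to 73.7 and 73.5 CPM (5.26). COL17A1, a hemidesmosome collagen, and COL6A2 rose by 5.44 and 5.51. COL5A1 reached 9.33 and 9.25 CPM with indisulam alone and 1.04 and 1.1 CPM with palbociclib alone. Against indisulam 32 of the 45 were higher and 4 lower, where 22% of all genes were higher and 23.9% lower.

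Mesenchymal and YAP target genes rose in 25 of 28 cases, and 1, S100A4, fell (median 1.65). TAGLN, an actin-binding protein of smooth muscle, rose from 4.08 and 2.2 CPM to 238 and 231 CPM (log2 fold change 6.22, SE 0.13, edgeR adjusted p = 4.59e-14). MYL9, a myosin light chain, rose from 0.952 and 0.6 CPM to 91.5 and 89.1 CPM (6.85, SE 0.16, edgeR adjusted p = 9.16e-14), and ANKRD1, a YAP target, rose by 5.51. TGFBI, a secreted matrix protein induced by TGF-beta, rose from 410 and 429 CPM to 4182 and 4170 CPM, one of the largest gains in CPM (3.32, SE 0.06, edgeR adjusted p = 6.26e-15). FLNA, which crosslinks actin, went from 1281 and 947 CPM to 3363 and 3407 CPM. Against indisulam 21 of the 28 were higher and 1 lower, where 22% of all genes were higher and 23.9% lower. The medians of the list with palbociclib and with indisulam alone were 0.31 and 0.70. The 6 fibroblast markers summed to 2.11 and 2.2 CPM untreated and to 84.7 and 82.8 CPM with the combination, of which COL1A1 was the main part. LUM, a matrix proteoglycan, went from 0.068 and 0 CPM to 9.71 and 8.17 CPM, and these 2 were the members tested and both were higher, while PDGFRA did not pass 0.257 CPM, DCN 0.322 CPM or COL3A1 0.496 CPM in these libraries. Whether another cell type has a part in these gains was not tested.

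Proteases, their inhibitors and IGF-binding proteins rose in 27 of 31 cases, and SERPINA1, SERPINB1 and IGFBP3 fell (median 1.49). The fall of SERPINA1 was small (-0.18), and its call was lost without untreated replicate 1 (-0.14) or either combination replicate (-0.21 and -0.15). It was also lost with the replicate block (edgeR adjusted p = 0.0562), with DESeq2 (-0.22), with no filter on low counts and with only the compared libraries in the model. IGFBP7, a secreted binder of growth factors, rose from 2.79 and 2.07 CPM to 76.4 and 67.8 CPM (log2 fold change 4.89, SE 0.13, edgeR adjusted p = 2.81e-13). It was at 18.9 and 19.5 CPM with indisulam and at 7.79 and 7.44 CPM with palbociclib, and no groups overlapped. TIMP3, an inhibitor of metalloproteases that lies inside the oppositely read gene SYN3, went from 0.068 and 0 CPM to 13.5 and 14.5 CPM, and SPOCK1, a matrix proteoglycan, from 0.408 and 0.133 CPM to 58.4 and 61.7 CPM.

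The keratins named here rose, while some junction genes fell. The epithelial list had 14 of 27 members higher (51.9%, beside 35.1% of all genes), with a median of 0.65. Its 8 members that were lower (29.6%) were near the 30% of all genes. KRT80 rose from 37.9 and 34.4 CPM to 297 and 311 CPM (log2 fold change 3.07, SE 0.07, edgeR adjusted p = 9.16e-14). KRT7, a keratin of simple epithelium, rose from 1062 and 901 CPM to 3285 and 3173 CPM (1.72). KRT8 and KRT18, which pair in simple epithelia, overlap on opposite strands and have many pseudogenes, had log2 fold changes of 1.24 and 0.83. CLDN2, a pore-forming claudin, fell from 1321 and 1363 CPM to 613 and 606 CPM (-1.14), and TJP3, a tight junction scaffold, fell by 1.59. EPCAM and CDH1, markers of epithelial cells, changed by -0.42 and -0.29.

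**Figure D4:**
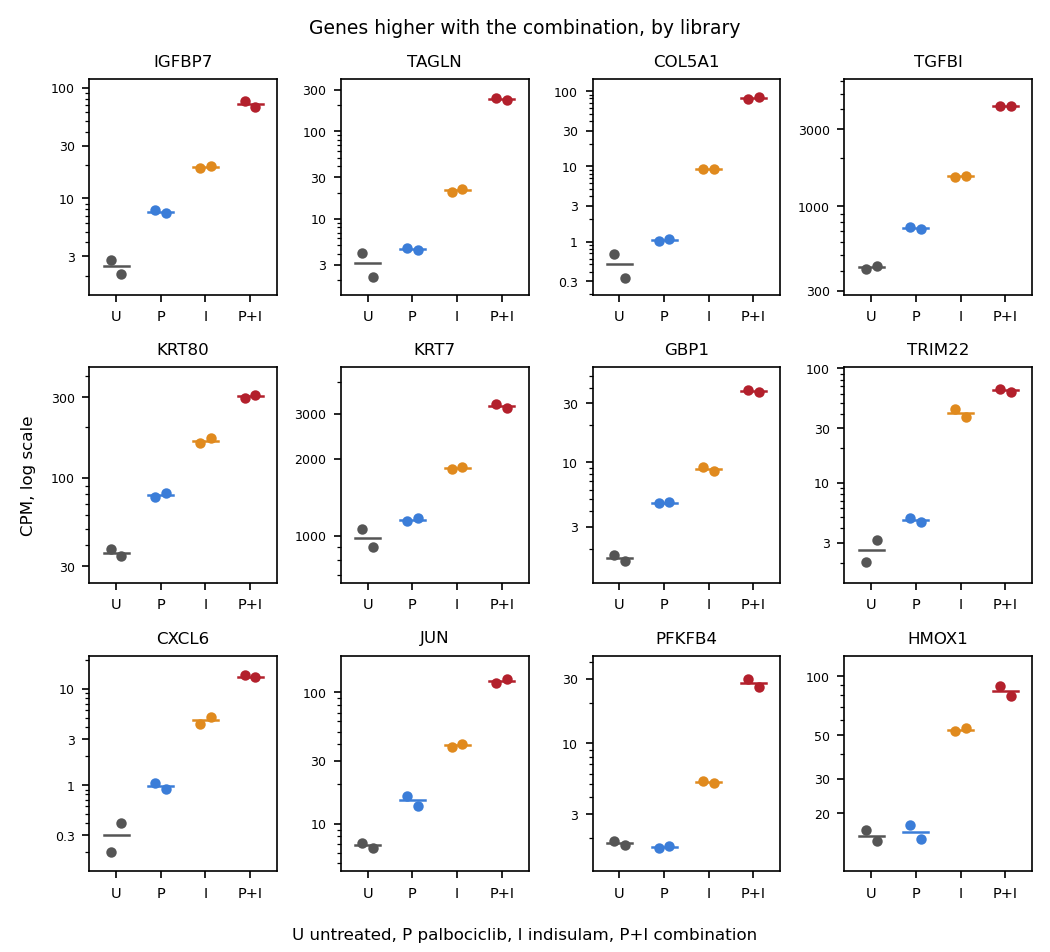
Levels (CPM, log scale) of 12 genes that rose with the combination in each library, with U for untreated, P for palbociclib, I for indisulam and P+I for the combination, and a bar at the mean of each pair. The combination libraries are the highest for each gene plotted, and TAGLN runs from 4.08 and 2.2 CPM in untreated cells to 238 and 231 CPM.

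Interferon-stimulated genes were mostly higher. Of 45 members tested, 32 rose and 7 fell (median 1.16). TRIM22, an antiviral ligase that p53 raises too, went from 2.04 and 3.13 CPM to 65.9 and 62.6 CPM (log2 fold change 4.63, SE 0.15, edgeR adjusted p = 1.99e-12). GBP1, a guanylate-binding protein, went from 1.77 and 1.6 CPM to 38.2 and 36.8 CPM (4.47, SE 0.13, edgeR adjusted p = 9.52e-13). IFI27 rose from 0.34 and 1.07 CPM to 11.1 and 11.5 CPM (3.98), and IFI6 and DDX60L rose by 2.04 and 1.90. These 3 had low or moderate levels with each single drug, such as 1.17 and 1.12 CPM of IFI27 with indisulam. Others fell, among them ISG20, an exonuclease (-1.66), IFI35 (-1.26) and IFITM2, a block to virus entry (-1.17). Against palbociclib 31 of the 45 were higher and 7 lower, where 33.5% of all genes were higher and 26.9% lower. Against indisulam 27 were higher and 6 lower, where 22% of all genes were higher and 23.9% lower.

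Of 18 genes of HLA class I presentation, 13 rose and 3 fell, PDIA3 and CALR among them (median 0.50). TAP1, a peptide transporter, went from 24.9 and 22.8 CPM to 62.6 and 57.7 CPM (log2 fold change 1.33, SE 0.08, edgeR adjusted p = 2.85e-09). PSMB9, an immunoproteasome subunit whose gene adjoins TAP1 on the other strand, and NLRC5, the activator of class I genes, rose by 1.33 and 1.37. In the opposite direction HLA-DMB, a class II peptide editor, had the steepest fall among the genes named by the rule, from 118 and 126 CPM to 2.2 and 2 CPM (-5.86, SE 0.11, edgeR adjusted p = 1.73e-14). It was at 48.5 and 46.1 CPM with palbociclib and at 24.7 and 23.0 CPM with indisulam, and no groups overlapped.

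Chemokines, cytokines and growth factors rose in 34 of 43 cases and fell in 6 (median 1.11). CXCL6, a chemokine for neutrophils, rose from 0.204 and 0.4 CPM to 13.8 and 13.1 CPM (log2 fold change 5.43, SE 0.25, edgeR adjusted p = 1.02e-10), with 4.35 and 5.09 CPM with indisulam alone. VEGFA, an angiogenic factor, changed by 0.76. TNFSF15, a ligand of the TNF family, ran against the single drugs: it was at 45.7 CPM in both untreated libraries and at 24.2 and 27.4 CPM with the combination, but at 78.4 and 83.0 CPM with palbociclib and at 80.8 and 81.2 CPM with indisulam (-1.65 against either drug). Of 26 NF-kB subunits and feedback genes, 17 rose and none fell (median 0.50). TNFAIP3, which ends NF-kB signalling, rose from 2.18 and 2.27 CPM to 16.7 and 17 CPM (2.92), and BCL3, an atypical member of the inhibitor family, rose by 1.18.

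Complement genes were mixed, with 9 of 18 higher (50%) and 5 lower (27.8%), beside 35.1% and 30% of all genes (median 0.25). CFI, the protease that cleaves complement fragments, rose from 4.08 and 3.6 CPM to 25.5 and 26.5 CPM (log2 fold change 2.76), and CD59, a membrane inhibitor of lysis, from 121 and 134 CPM to 386 and 377 CPM (1.58). Among the 5 that fell were C1RL, C5, CFD and CD55. Of 26 AP-1 and immediate early genes, 12 were higher (46.2%) and 10 lower (38.5%), not far from the same shares of all genes (median 0.19). JUN rose from 7.14 and 6.53 CPM to 117 and 126 CPM (4.15, SE 0.10, edgeR adjusted p = 1.2e-13) and FOSL1 rose by 2.36, both subunits of AP-1. ETV4, a factor downstream of ERK, fell from 188 and 173 CPM to 36.5 and 35.4 CPM (-2.33), and SPRY2, an ERK feedback inhibitor, fell by 0.66.

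Several genes of airway mucus fell, though no list counted such genes and another mucin, MUC3A, rose. MUC5AC, a gel-forming mucin, stood at 3693 and 2576 CPM untreated and at 100 and 103 CPM with the combination (log2 fold change -4.95, SE 0.15, edgeR adjusted p = 1.22e-12). The adjacent mucin gene MUC5B fell from 3621 and 2488 CPM to 379 and 364 CPM (-3.04). AGR2, a disulphide isomerase needed to fold mucins, fell from 3343 and 3659 CPM to 620 and 581 CPM (-2.54), and FCGBP, a mucus protein, from 984 and 695 CPM to 26.7 and 26.5 CPM (-4.98). For each of these genes the order was untreated, palbociclib, indisulam and combination, with 999 and 973 CPM of MUC5AC with palbociclib and 353 and 436 CPM with indisulam. The untreated replicates stood apart in MUC5AC, MUC5B and FCGBP, yet no untreated library came near the combination. TXNIP, an inhibitor of thioredoxin and glucose uptake, fell from 85.0 and 87.1 CPM to 2.69 and 1.93 CPM (-5.22), where indisulam alone gave 3.18 and 1.72 CPM and the difference of the combination from it did not pass the test (-0.08, SE 0.28, edgeR adjusted p = 0.829). SUCNR1, the succinate receptor, fell from 154 and 181 CPM to 7.66 and 8.30 CPM, and palbociclib alone gave 214 and 211 CPM.

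NRF2 targets fell in 27 of 34 cases and rose in 5 (median -0.76). A549 cells carry a mutation of KEAP1, the inhibitor of NRF2, and express these genes at high levels. AKR1B10, an aldo-keto reductase, went from 6296 and 6667 CPM to 1554 and 1555 CPM, the largest loss of CPM among the genes named (log2 fold change -2.06, SE 0.05, edgeR adjusted p = 2.29e-13). ALDH3A1, an aldehyde dehydrogenase, went from 7362 and 6114 CPM to 2215 and 2148 CPM (-1.63), and NQO1, a quinone reductase, from 3356 and 3578 CPM to 1120 and 1070 CPM (-1.66). ALDH3A1 was higher with palbociclib alone, at 9062 and 9266 CPM, and lower with indisulam alone, at 4490 and 4348 CPM. GPX2, a glutathione peroxidase, fell by 2.01. The 5 that rose were HMOX1, TXNRD1, SRXN1, AKR1B1 and FTH1. SRXN1 lost its call when any 1 of the 4 libraries was left out (1.34 to 1.87) and with TMM scaling, as FTH1 did (0.13). SRXN1 also lost it with DESeq2, with no filter on low counts and with only the compared libraries in the model. HMOX1, the haem oxygenase that BACH1 also controls, rose from 16.4 and 14.4 CPM to 89.6 and 79.6 CPM (2.45). Against indisulam 24 of the 34 were lower and 5 higher, where 23.9% of all genes were lower and 22% higher.

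Of 39 ATF4 and unfolded protein response genes, 30 were lower and 6 higher (median -0.75). PHGDH, the entry enzyme of serine synthesis, went from 319 and 289 CPM to 44.5 and 40.7 CPM (log2 fold change -2.84, SE 0.07, edgeR adjusted p = 1.7e-13), with 234 CPM in both palbociclib libraries and 186 and 180 CPM with indisulam. ALDH1L2, a mitochondrial folate enzyme, and TRIB3, a pseudokinase, fell by 2.27 and 1.87. ATF3, a stress factor, rose from 9.52 and 9.87 CPM to 55.8 and 59.5 CPM (2.57). Of 20 aminoacyl-tRNA synthetases, 14 were lower and 2, RARS1 and VARS1, higher (median -0.55). VARS1 lost its call with TMM scaling (0.14), with DESeq2 (0.19) and with a mean of at least 50 counts. The same held with only the compared libraries in the model and with totals without mitochondrial genes. It also held without untreated replicate 2 (0.05) or either combination replicate (0.20 and 0.26). AARS1, which charges alanine, went from 580 and 553 CPM to 237 and 234 CPM (-1.27, SE 0.05, edgeR adjusted p = 3.65e-11).

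Ribosomal protein genes fell as a group by a small amount. Of 78, 73 were lower and none higher, with a median of -0.58 and no change of 2-fold. RPS16 went from 1998 and 2046 CPM to 1090 and 991 CPM (log2 fold change -0.96, SE 0.06, edgeR adjusted p = 1.74e-09), and RPL10A and RPS6 fell by 0.93 and 0.91. These genes have many pseudogenes, so that their reads may be shared between copies. The medians with palbociclib and indisulam alone were -0.14 and -0.31. Ribosome biogenesis genes fell in 17 of 34 cases and rose in 5 (median -0.15), and FBL, the methyltransferase of ribosomal RNA, went from 362 and 373 CPM to 144 and 139 CPM (-1.38), below the 320 to 346 CPM of the single drugs.

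Nuclear genes of oxidative phosphorylation fell in 48 of 62 cases and none rose (median -0.43). NDUFB8, a subunit of complex I, went from 16.7 and 17.3 CPM to 5.11 and 5.15 CPM (log2 fold change -1.73, SE 0.13, edgeR adjusted p = 2.05e-08), and ATP5MC1, a ring subunit of the ATP synthase, fell by 1.37. The 13 protein genes of the mitochondrial genome had a median of -0.01, with MT-ND1 called higher (0.29) and MT-CO2 lower (-0.38). MT-ND1 lost its call with TMM scaling (0.21), with DESeq2 (0.26), with the replicate block (edgeR adjusted p = 0.0558) and with a mean of at least 50 counts. The same held with only the compared libraries, with totals without mitochondrial genes, and without untreated replicate 2 (0.16) or combination replicate 2 (0.15). MT-CO2 lost its call without untreated replicate 1 (-0.22) or combination replicate 1 (-0.28). The untreated libraries differed in their share of mitochondrial reads, and leaving out 1 untreated library moved these counts to 4 higher and 0 lower or to 0 higher and 4 lower. Proteasome subunits fell in 18 of 31 cases, while PSMD1 and PSMD12 rose (median -0.20). PSMC4, an ATPase of the proteasome cap, went from 350 and 340 CPM to 201 and 195 CPM, and each single drug gave 345 to 349 CPM.

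**Figure D5:**
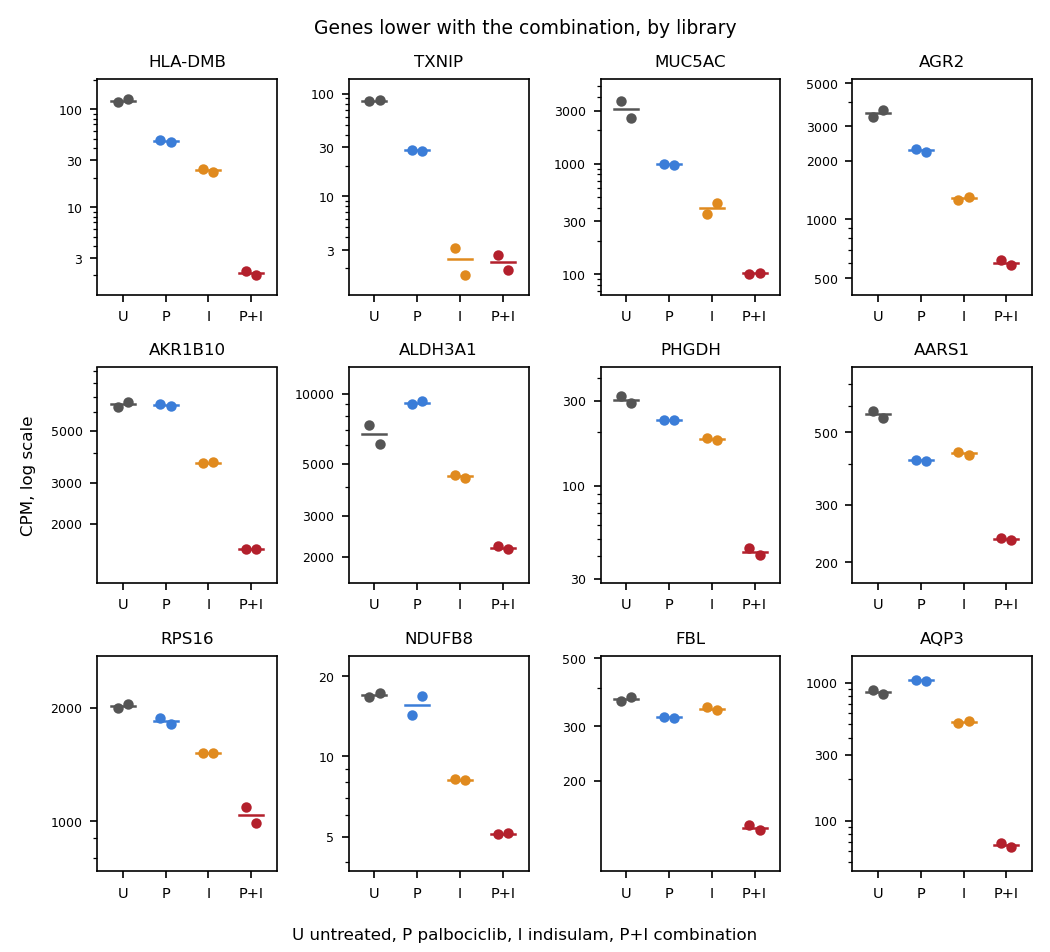
Levels (CPM, log scale) of 12 genes that fell with the combination in each library, with U for untreated, P for palbociclib, I for indisulam and P+I for the combination, and a bar at the mean of each pair. The combination libraries lie below all others except in TXNIP, where the indisulam libraries at 3.18 and 1.72 CPM bracket them.

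Glycolysis and hypoxia genes rose in 25 of 31 cases, and TPI1 fell (median 0.59). PFKFB4, which makes the activator of phosphofructokinase, rose from 1.9 and 1.8 CPM to 29.6 and 25.9 CPM (log2 fold change 3.90, SE 0.15, edgeR adjusted p = 2.25e-11). Its relative PFKFB3 rose from 119 and 109 CPM to 514 and 525 CPM (2.18), and ADM, a vasodilator peptide raised in hypoxia, rose by 3.44. Against indisulam 24 of the 31 were higher and none lower, where 22% of all genes were higher and 23.9% lower. Lysosome genes rose in 36 of 54 cases and fell in 8 (median 0.34). NPC1 and NPC2, which carry cholesterol out of lysosomes, rose by 1.81 and 1.86, while the hydrolases GUSB and HEXA fell by 1.89 and 1.29. Cholesterol and fatty acid synthesis genes fell in 19 of 36 cases (52.8%, beside 30% of all genes). They rose in 11 (30.6%, beside 35.1%), with a median of -0.21. ACLY and FASN, enzymes of fatty acid synthesis, were among those that rose, by 1.06 and 1.08.

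Heat shock and chaperonin genes were near the median of all genes. Of 24, 9 were higher (37.5%, beside 35.1% of all genes) and 3 lower (12.5%, beside 30%), namely HSPA1A, HSPA1B and CCT5. Their median of 0.02 turned to -0.07 with TMM scaling, where 6 were lower. CRYAB, a small heat shock protein, rose from 17.5 and 17 CPM to 69.7 and 67.6 CPM (log2 fold change 1.99), and each single drug left it between 15.9 and 18.4 CPM. Genes of the primary cilium fell in 19 of 37 cases and rose in 4, namely BBS5, KIF3A, CEP164 and RPGRIP1L (median -0.20), and with DESeq2 the calls of BBS5 and KIF3A were lost. Of 28 aldehyde dehydrogenases and ABC transporters, 11 were higher (39.3%, beside 35.1% of all genes) and 13 lower (46.4%, beside 30%), with a median of -0.12. ALDH1A3, which makes retinoic acid, went from 0.34 and 0.2 CPM to 13.6 and 10.9 CPM (5.46) and ABCA1, the cholesterol exporter, from 4.28 and 4.8 CPM to 55.2 and 56.3 CPM (3.61), while ALDH6A1 fell by 1.53.

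Some genes were close to silent in untreated cells and well expressed with the combination. At most 3 counts in each untreated library and at least 30 in each combination library were found for 117 genes, and the reverse for 5. MARCHF4, a membrane-bound ubiquitin ligase, had no read in either untreated library and 43.4 and 48.3 CPM with the combination, at least 225-fold higher. It was at 0.668 and 0.793 CPM with palbociclib and at 3.18 and 2.91 CPM with indisulam. AMTN, an enamel matrix protein, and MUC3A, a membrane mucin, were likewise at 0 in untreated cells and at least 110-fold and 81.8-fold higher. CPA4, a carboxypeptidase, went from 0.272 and 0 CPM to 151 and 144 CPM, and MAF, a transcription factor, from 0.136 and 0.0667 CPM to 80.0 and 82.1 CPM. With indisulam alone CPA4 was at 7.88 and 8.52 CPM and MAF at 5.39 and 5.48 CPM.

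Of 10133 genes at 10 CPM or more in untreated or combination cells, 2023 were higher and 2222 lower with the combination than in untreated cells and in both single drugs. The genes that stood furthest from all 3 groups included NECTIN3-AS1, HSD17B6 and NFASC among gains and AQP3, PCLAF and PIMREG among losses. HSD17B6, a steroid dehydrogenase, was at 31.6 and 29.9 CPM with the combination and at no more than 1.52 CPM in any untreated or single-drug library. NFASC, an adhesion molecule, was at 18.9 and 18.3 CPM, with no more than 0.76 CPM elsewhere. NECTIN3-AS1 was at 31.6 and 30.2 CPM, and since it overlaps NECTIN3 on the other strand and the strand setting of the counting is not given, its reads may belong to either. AQP3, a water and glycerol channel, stood at 884 and 822 CPM untreated, 1053 and 1028 CPM with palbociclib, 512 and 531 CPM with indisulam and 69.0 and 64.3 CPM with the combination (log2 fold change over untreated -3.68, SE 0.06, edgeR adjusted p = 1.11e-14). PCLAF, a partner of PCNA, and PIMREG, a mitotic protein, fell by 3.42 and 3.27 over untreated and by 2.96 or more against each drug.

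By class of gene, protein-coding genes had a median log2 fold change of 0.06, with 4955 of 13272 higher and 4160 lower. Long noncoding RNAs were balanced, with 414 of 1691 higher (24.5%) and 418 lower (24.7%), beside 35.1% and 30% of all genes. Of 308 processed pseudogenes, 27 were higher (8.77%) and 69 lower (22.4%), both below the shares of all genes (median -0.37). Genes of 20 or more exons had a median of 0.14 and genes of 1 exon a median of -0.04, a difference of 0.18. Indisulam alone gave 0.16 and 0.05 and palbociclib alone 0.02 and -0.06 for the same bins. The 1-exon genes were also expressed at a lower level, with an untreated median of 1.51 CPM against 33.2 CPM.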

How the data were processed

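The libraries were poly(A)-selected stranded RNA sequenced as single reads. The authors deposited counts of reads per Ensembl gene for each library, made with HISAT2 2.2.1 and HTSeq on GRCh38 per the labels; the strand setting and annotation release are not given in the sources used here. Rows that name no gene were left out: over the 4 libraries compared, reads outside genes made up 4.41% to 5.94%, ambiguous reads 3.13% to 3.47%, reads of low mapping quality 9.37% to 10.9% and unmapped reads 1.82% to 2.65%. Of 60683 gene identifiers, 60370 were named from GENCODE 44, and overlapping genes on opposite strands are uncertain. Counts were scaled by their total and tested with edgeR 4.0.16 (quasi-likelihood, R 4.3.3) in 1 model of the 10 A549 libraries, after filterByExpr, with Benjamini-Hochberg adjustment over the 15780 genes tested. The standard error is the log2 fold change over the square root of F. On simulated data with 200 changed genes, 190 of these were among the 14600 tested. The test called 83.7% of the changed genes tested and 90.2% of those changed by 2-fold or more, with 3.64% false calls. The simulation changed far fewer genes than were called here and gave all groups the same spread. Its share of false calls therefore does not carry over to these data.

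The comparison and the 33 gene lists were chosen with earlier results of these data known. Genes named were the study's own genes, the 12 largest and lowest fold changes, the 6 largest gains and losses of CPM, the 3 largest and lowest of each list, the 6 highest genes with at most 3 untreated counts and the 6 furthest beyond both drugs in each direction, all at 10 CPM or more save the first. Outside the rule, and chosen after their values were seen, are CENPA, HMMR, CDT1, IFI6, DDX60L, CDKN2A, CDKN2B, H2AC11, C5, CD55, ITGA10, SRXN1, FTH1, BBS5, DNMT3B, H2AJ and the genes under other observations. Alternatives were TMM factors, DESeq2 1.42.0, keeping genes of any count, a higher filter (50 counts on average), a model of the 4 compared libraries, a replicate block, totals without mitochondrial genes, each library left out, and for exon bins another exon count. The labels do not say that a replicate number marks a shared day or culture. Promoters came from the RefSeq table of GRCh38.p14. Some genes of the rule and lists are not reported here.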

Additional observations from a re-analysis of the deposited data

Results flagged for a closer look

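Reads placed on sequences outside the annotation came to 26.5 and 29.5 per 1000000 reads in the combination libraries, above 10.7 and 10.5 in the untreated libraries. Reads on no gene came to 5.94% and 5.81% of the combination libraries, above 5.10% and 4.41% untreated. Both stand outside the gene counts that were compared. Their part in the changes of single genes was not tested.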

How the results depend on the processing

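The number of genes higher with the combination was 5544 and ranged from 4443 with DESeq2 to 6074 with no filter, and the number lower was 4739 and ranged from 3969 without combination replicate 2 to 5397 with TMM factors. More genes were lower than higher with TMM factors (4908 higher) and with a mean of at least 50 counts (4091 higher and 4135 lower). With a replicate block, 5505 genes were higher and 4703 lower, and the correlation of the deviations of same-numbered libraries was 0.0398. With a mean of at least 50 counts, 11768 genes were tested in place of 15780. Genes changed by 2-fold or more went from 2624 to 1313 higher and from 1420 to 911 lower. The excess of large gains over large losses was thus smaller among genes with more counts. The median of all genes, 0.05, moved to -0.03 with TMM factors, to 0.01 with DESeq2 and to 0.00 both with no filter and with a mean of at least 50 counts, and leaving out each library gave 0.04 to 0.07. The number of lists with more members higher than lower was 16 of 33, and 16 or 17 in every alternative. The heat shock list turned from 0.02 to -0.07 with TMM factors, and to -0.02 with DESeq2, and leaving out each library gave -0.02 to 0.08. RB1, at 0.00, became -0.08 with TMM factors, -0.04 with DESeq2 and -0.15 to 0.17 when each library was left out. The exon difference of 0.18 moved to 0.23 with a mean of at least 50 counts and to 0.21 with the transcript of most exons. The cause of these moves was not tested. Without untreated replicate 1 the ribosome biogenesis genes that rose went from 5 to 8, and with TMM factors the NRF2 targets that rose went from 5 to 3. Of the values of named genes over untreated under these alternatives, 1974 kept direction and call, 4 (RB1) turned and 56, in 13 genes, lost the call. The replicate block ended the calls of SERPINA1 and MT-ND1 and no other call of a named gene.

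Depth limits genes near 3 counts, where a fold against 0 is only a lower bound. The groups held 2 libraries each, so that an exact permutation test of 1 gene cannot give a p under 0.333, and the calls rest on the spread shared across genes and groups.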

Other observations

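Among the 117 genes near silent in untreated cells and expressed with the combination were genes of squamous and barrier epithelium, chosen after their values were seen. Counts in the 2 untreated and 2 combination libraries were 0, 0, 61 and 54 for SPRR1A and 0, 0, 62 and 74 for IVL, proteins of the cornified envelope. KRT6A, a keratin of stressed epidermis, had 1 and 1 against 61 and 44 counts, and SBSN had 1 and 1 against 49 and 37. The same group held SNAI2, a repressor of epithelial genes, with 3 and 2 against 117 and 140 counts, and ZEB2, a factor of the same kind, with 0 and 1 against 44 and 55. LUM, a matrix proteoglycan, had 1 and 0 against 137 and 127 counts and THY1, a surface protein of stromal cells, 0 and 0 against 61 and 84. IL7R, a cytokine receptor, had 0 and 0 against 124 and 133 counts, and IL33, a nuclear alarmin, 2 and 2 against 53 and 75. PINCR, a long noncoding RNA, had 1 and 0 against 41 and 36.

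The 5 genes that met the reverse of this rule, near silent with the combination and not in untreated cells, were ADH1B, CADM2, HGF, LRRC32 and SCNN1B. LRRC32, which holds latent TGF-beta at the cell surface, had 140 and 83 counts untreated and 3 and 3 with the combination. It had 8 and 5 counts with indisulam, and its difference from indisulam did not pass the test (log2 fold change -1.09, edgeR adjusted p = 0.278). HGF, the ligand of MET, had 46 and 66 against 3 and 3, and SCNN1B, a subunit of the epithelial sodium channel, had 52 and 53 against 1 and 0, beside 5 and 7 with palbociclib and 7 and 9 with indisulam. ADH1B, an alcohol dehydrogenase, had 52 and 70 against 3 and 2 counts, and CADM2, an adhesion molecule, had 42 and 45 against 2 and 2.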
